A study of Mus musculus with 4 samples.

Results

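The high-numbered zinc finger protein genes are the genes of the screen whose mouse symbol is Zfp followed by a 3-digit number of 700 or more and at most 1 letter. They were chosen by a rule on names, with 1 entry of this range left out, and comprise 102 of the 20380 genes analysed. The rule was set with earlier results of these data known. All 102 matched a protein-coding RefSeq gene by symbol. A further 34 RefSeq genes with such names, 13 of them on chromosome 4 and 8 on chromosome 2, were not analysed here. The zinc fingers and KRAB domains of the encoded proteins were not read from sequence here, so the group is defined by its names.

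The screen was run in E14 mouse embryonic stem cells, an established cell line, which carried a MERVL-tdTomato reporter and had the treatment label none. MERVL is an endogenous retrovirus that is switched on at the 2-cell stage of the embryo, and the few cultured embryonic stem cells that resemble this stage express it too. Both groups come from cells that had received a lentiviral lentiCRISPRv2 library of 130209 guides and puromycin. Guides were amplified from genomic DNA of cells sorted for the reporter at day 5 (MERVL-positive, 2 libraries) and of total cells (2 libraries), which the titles call sequencing repeats. About 500000 positive cells were sorted, or 3.84 per guide of the library. The sort rests on 1 fluorescent reporter, and the labels name no clone and no separate cultures.

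Each gene has a single log2 fold change, MERVL-positive against total, and the libraries have no values of their own. No member therefore has a spread between libraries, and depth is unknown. A positive value is taken to mean that guides were more frequent in MERVL-positive cells. This direction is likely but the file does not state it. It rests on the study's title, in which Ints7 deficiency activates MERVL, and on Ints7 itself, which the authors' deposited table places at rank 157 of 22510 for positive change, with a log2 fold change of 0.14. The value of Ints7 is weak support, since the upper quartile over all genes was 0.26. No gene passed a false discovery rate of 0.05 for positive change. With the opposite reading every direction turns. Fewer cells that switch the reporter on and poorer survival of such cells cannot be told apart in these values.

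C2H2 zinc finger proteins bind DNA through arrays of finger motifs, each held by a zinc ion. Many mouse Zfp genes also encode a KRAB domain, which recruits the corepressor KAP1 (encoded by Trim28) and through it the H3K9 methyltransferase SETDB1, HP1 proteins and DNA methylation to retroviral sequences. These genes lie in tandem clusters that grew by duplication, so that neighbours are often close copies. The comparison asks which knockouts change the share of cells that express MERVL.

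None of the 102 members passed a false discovery rate of 0.05 in either direction, a rule that called 0% of all genes for enrichment and 0.00491% for depletion. The members' lowest false discovery rates in the authors' deposited table were 0.959 for enrichment and 0.947 for depletion. At an unadjusted p under 0.05, 5 members were on the enriched side, which is 4.90% against 5.02% of all genes. On the depleted side there were 2, which is 1.96% against 5.07% of all genes. At a p under 0.01 there was no member on either side, where 1.07% of all genes lay for enrichment and 1.12% for depletion. With so few sorted cells per guide, a member without a call may still have an effect. How large an effect could be missed was not tested. Zfp825, with the lowest log2 fold change of the members (-2.14), had a depletion false discovery rate of 0.947.

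The members were centred on 0. Their median log2 fold change was 0.0012, with quartiles of -0.26 and 0.23 and a range from -2.14 to 0.72, and 51 lay above 0 and 51 below. Over all genes the median was -0.021, and 48% lay above 0 and 52% below. The 249 Zfp genes with numbers below 700 had a median of -0.021, and the 998 single non-targeting guides one of 0.019. The standard deviation over genes was 0.454 for the members, 0.476 for the lower-numbered Zfp genes and 0.480 for all genes. Within 0.5 of 0 lay 80 members, or 78.4%, against 74.3% of all genes. No member had a value above 1, where 0.868% of all genes did, and 2 members had one below -1, or 1.96% against 3.29% of all genes.

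**Figure D1:**
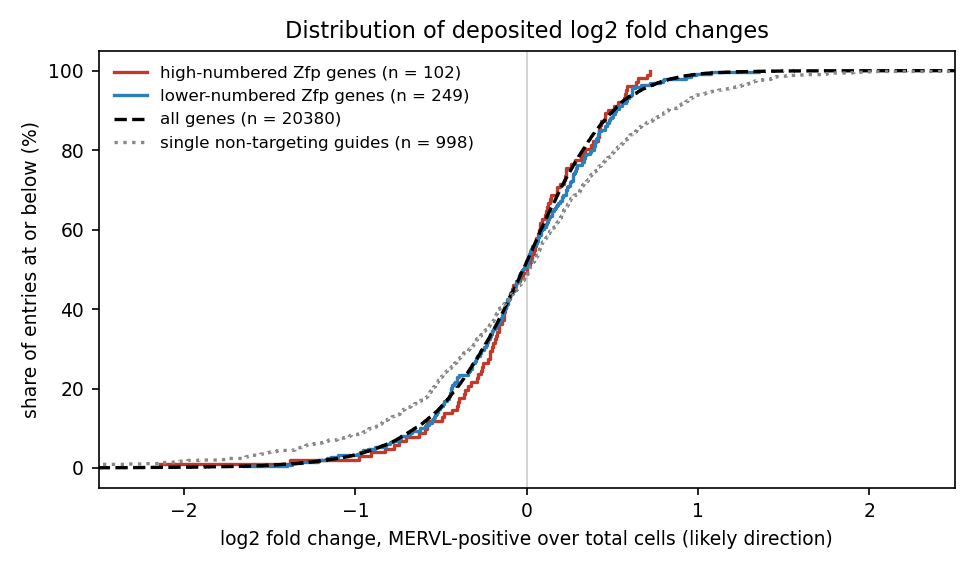
Cumulative share of entries (y axis, in percent) at or below each log2 fold change (x axis) for the 102 high-numbered Zfp genes, 249 lower-numbered Zfp genes, 20380 genes and 998 single non-targeting guides. The 3 gene curves run close together and cross near 0, the single guides spread more widely, and the x axis is limited to values from -2.5 to 2.5.

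Zfp941, on chromosome 7 from 140807453 to 140822201 (GRCm38.p6, the coordinates of mm10), ranked first among the members for enrichment. The authors' deposited table places it at rank 229 of 22510 entries, with a log2 fold change of 0.51 and an enrichment p of 0.0107 (false discovery rate 0.959). For this gene the authors' deposited table counts 3 of 6 guides as up and 2 as down. A guide is called up or down here when it is past the guide threshold of that direction, which 37.4% and 38.0% of all genes' guides are, so the threshold is loose.

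Zfp953, on chromosome 13 from 67339309 to 67360572, was the only member with all its guides in 1 direction. The authors' deposited table lists 6 of 6 guides as up, with a log2 fold change of 0.58 and an enrichment p of 0.0130 (false discovery rate 0.964). Among genes with 6 guides, all 6 were up in 1 of 71 members, or 1.41%, and in 35 of 16270 genes, or 0.215%. Exactly 5 of 6 were up in 2.82% of these members and 2.70% of these genes, and 4 of 6 in 8.45% and 11.6%. Zfp953 is a single gene picked out by its 6 guides up, and no test of it was made.

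Zfp711, on chromosome X from 112600526 to 112635070, had the highest log2 fold change of the members. It is a relative of Zfx that lacks a KRAB domain and acts at gene promoters with the histone demethylase PHF8, and its human counterpart is linked to intellectual disability. The authors' deposited table gives it 0.72, or a ratio of 1.65, and counts 4 of 5 guides as up and none as down. Its enrichment p was 0.0303 (false discovery rate 0.985) in the authors' deposited table.

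Zfp708, on chromosome 13 from 67069398 to 67097976, encodes a KRAB protein known to silence RMER19B retrotransposons and lies in the same cluster as Zfp953. For it the authors' deposited table lists a log2 fold change of 0.57, 5 guides up and 1 down of 6 and an enrichment p of 0.0361 (false discovery rate 0.985). For Zfp867, on chromosome 11 from 59461197 to 59472527, the authors' deposited table lists a log2 fold change of 0.38, 5 guides up and none down of 6 and an enrichment p of 0.0444 (false discovery rate 0.985). With Zfp941, Zfp953 and Zfp711, these are the 5 members with an unadjusted enrichment p under 0.05.

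Of the 5 members with the highest log2 fold changes, only Zfp711 had an unadjusted p under 0.05. The other 4 stood in the authors' deposited table at 0.70 (Zfp704), 0.65 (Zfp938), 0.64 (Zfp931) and 0.59 (Zfp780b). Their enrichment p-values in the authors' deposited table lay between 0.185 and 0.311. Zfp704, Zfp931 and Zfp780b had only 4 guides each, while for Zfp938 the authors' deposited table counts 4 of 6 guides as up and none as down.

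Zfp825, on chromosome 13 from 74478378 to 74494012 and outside the clusters, had the lowest value of the members. The authors' deposited table gives it -2.14, or a ratio of 0.227, and counts 1 guide as up and 4 as down of 6. For depletion the authors' deposited table lists a p of 0.0231 (false discovery rate 0.947). Zfp866, on chromosome 8 from 69761324 to 69774911, was the second with a depletion p under 0.05. For Zfp866 the authors' deposited table lists a log2 fold change of -1.38, 1 guide up and 4 down of 6 and a depletion p of 0.0454 (false discovery rate 0.975).

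Next in order in the authors' deposited table stood Zfp750 at -0.98, Zfp955b at -0.91 and Zfp759 at -0.83. None of these 3 had an unadjusted p under 0.05. For Zfp750, a factor of epidermal differentiation on chromosome 11, the authors' deposited table lists no guide up, 4 of 6 down and a depletion p of 0.135.

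**Figure D2:**
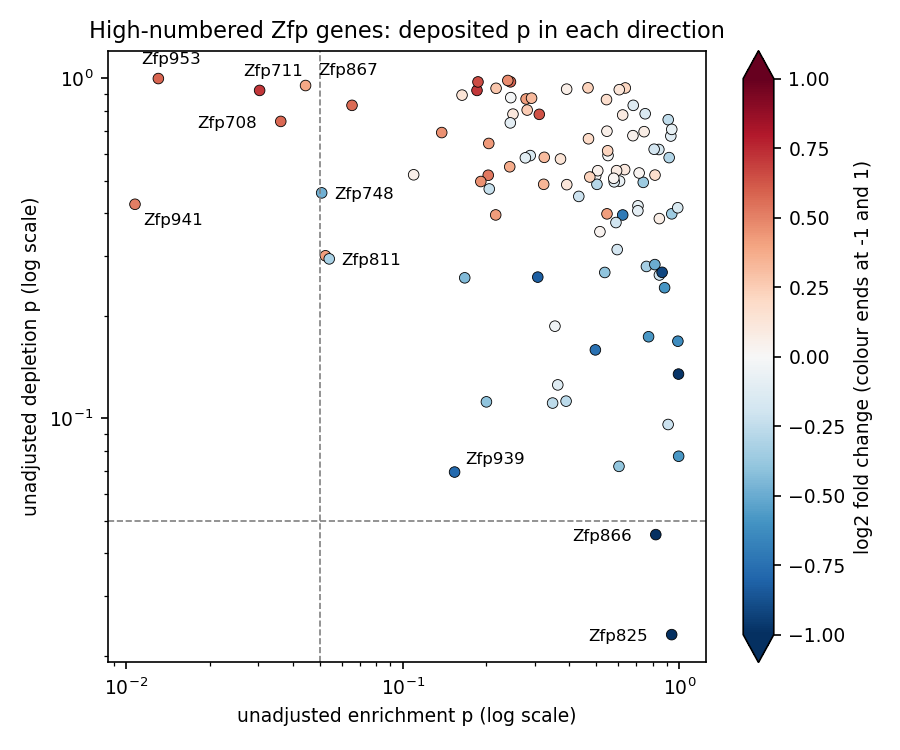
Unadjusted enrichment p (x axis) against unadjusted depletion p (y axis) of the 102 members, both on log scales, with each point coloured by its log2 fold change and dashed lines at 0.05. Of the points, 5 lie left of the vertical line and 2 below the horizontal line, none lies past both, and the labelled Zfp748 and Zfp811 lie close to the vertical line with a log2 fold change below 0.

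Other members known to bind or silence retroviral elements had no p under 0.05 in either direction. For Zfp932, a KRAB protein that represses endogenous retroviruses in embryonic stem cells, the authors' deposited table lists a log2 fold change of 0.11, with 2 guides up and 1 down of 5. For Zfp819, which binds KAP1 and helps keep the genome of embryonic stem cells intact, the authors' deposited table lists -0.36, with no guide up and 3 of 5 down. For Zfp961, which binds a primer binding site of retroviruses, the authors' deposited table lists -0.26, with 3 guides up and 3 down. For these 3 genes the lowest p that the authors' deposited table lists is 0.111, for depletion of Zfp961. Together with Zfp708 they lay on both sides of 0, at 2 above and 2 below.

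Members with known roles outside retroviral silencing also spread over both sides of 0. For Zfp706, which promotes the exit of embryonic stem cells from self-renewal, the authors' deposited table lists -0.36, with 2 guides up and 3 down of 6. For Zfp830, a splicing-associated protein needed in the early embryo, the authors' deposited table lists 0.23, with 3 guides up and 1 down of 6. Zfp703, a corepressor known as a breast cancer oncogene, stood in the authors' deposited table at 0.057, with 3 guides up and 2 down. Zfp827, which brings the NuRD complex to telomeres, stood in the authors' deposited table at -0.16, with none up and 2 of 6 down.

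For Zfp710 the authors' deposited table lists 5 of 6 guides down and none up, a log2 fold change of -0.58 and a depletion p of 0.0773 with a false discovery rate of 0.977. Zfp768, which binds old repeat elements, stood in the authors' deposited table at -0.71, with 2 guides up and 3 down of 6. The like-named Zfp804a, whose human counterpart is a schizophrenia risk gene, and Zfp804b stood in the authors' deposited table at -0.59 and 0.0029. For Zfp804b the authors' deposited table counts 3 guides each way, and its sign turns when values are set against the non-targeting guides.

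In most members guides were found on both sides. Of the members' 573 guides, 217 were up, or 37.9% (exact 95% interval 33.9 to 42.0), and 209 were down, or 36.5% (32.5 to 40.6). Over all genes 37.4% of guides were up and 38.0% down, both inside these intervals, which cover counting error only and treat guides as independent. Guides in both directions were found in 88 members, or 86.3%, against 85.6% of all genes. More guides were up than down in 40 members, more were down than up in 41, and 21 had as many up as down. The like shares over all genes are not given here, so these counts are a description only.

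**Figure D3:**
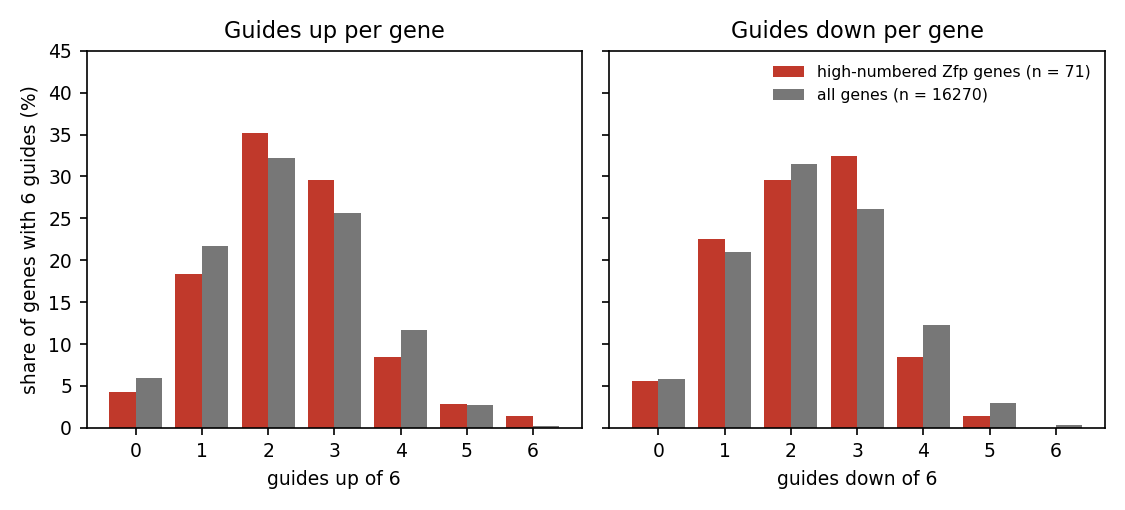
Share of genes (y axis, in percent) by the number of their 6 guides that were up (left) or down (right), for the 71 members and the 16270 genes with 6 guides. Both groups peak at 2 guides up, the members peak at 3 down and all genes at 2 down, and 1 member had 6 up while none had 6 down.

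The deposited p and the log2 fold change of a member could point in opposite directions. In 12 members the enrichment p was the lower one while the log2 fold change was below 0, which is 11.8% against 10.5% of all genes. In 10 members the depletion p was the lower one while the value was above 0, or 9.80% against 8.85% of all genes. Zfp748 and Zfp811, chosen after their values were seen, are cases of the first kind. For Zfp748 the authors' deposited table lists an enrichment p of 0.0508 beside a log2 fold change of -0.48, with 2 guides up and 3 down of 6. For Zfp811 the authors' deposited table lists 0.0541 beside -0.33, again with 2 guides up and 3 down of 6.

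A p under 0.25 in both directions was found in 2 members, Zfp939 and Zfp937, which is 1.96% against 3.01% of all genes. For Zfp939, also chosen after its values were seen, the authors' deposited table lists p-values of 0.154 for enrichment and 0.0694 for depletion, with a log2 fold change of -0.78.

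By position, 68 of the 102 members lay on chromosomes 7, 8, 13 and 17. Of the 19058 genes matched by symbol, these chromosomes held 1780, 915, 688 and 959. With gaps of at most 1 Mb and at least 4 members, 49 members fell into 8 clusters of 4 to 10 genes, and 53 lay outside them. The clustered members had a median log2 fold change of -0.041 and those outside one of 0.0029. All 8 clusters held members on both sides of 0, and their medians ran from -0.20 to 0.15, with 4 below and 4 above 0. Members next in order within a cluster had the same sign in 23 of 41 pairs, or 56.1%, and genes next in order over the whole genome in 50.2% of 19037 pairs. The largest cluster, on chromosome 17, had 8 of 9 pairs with the same sign, while that of 8 members on chromosome 13 had 2 of 7. Members next in order can have other genes between them, so these shares are of unlike pairs, and their difference was not tested.

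The largest cluster, on chromosome 17 from 21565816 to 22867309, held 10 members, of which 8 had a log2 fold change above 0, against 48% of all genes. This count was 7 with the median of the non-targeting guides as the zero point. The values in the authors' deposited table ran from -0.18 for Zfp946 to 0.46 for Zfp942, with a median of 0.15, and no member of the cluster had an unadjusted p under 0.05. Of its 53 guides, 24 were up, or 45.3%, and 12 down, or 22.6%, against 37.4% and 38.0% over all genes. A high share up was not particular to it. In the cluster of 8 members on chromosome 13, 47.8% of guides were up and 30.4% down. In that on chromosome 7 from 127242996 to 127406835, 45.8% were up and 33.3% down. The largest cluster is singled out here after the values of 8 clusters were seen, and its difference from the others was not tested.

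The cluster on chromosome 8 from 69209018 to 69774911 had 4 of 6 members below 0, where 52% of all genes lay, and a median of -0.19. Its values in the authors' deposited table ran from 0.34 for Zfp963 to -1.38 for Zfp866. Of its 34 guides, 9 were up, or 26.5%, and 16 down, or 47.1%, against 37.4% and 38.0% over all genes. In the cluster on chromosome 13 from 67038594 to 67683512, which holds Zfp708 and Zfp953, 4 of 8 members lay above 0. Between those genes lies Zfp759, for which the authors' deposited table lists -0.83, with 1 guide up and 4 down of 6.

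Of the smaller clusters, that on chromosome 6 from 47815536 to 48621548 held 5 members, from -0.40 for Zfp786 to 0.056 for Zfp956 in the authors' deposited table. Of these 5, 4 lay below 0, with a median of -0.13, and 7 of the 28 guides were up and 13 down. Over all genes 48% lay above 0 and 52% below, and 37.4% of guides were up and 38.0% down. No cluster was tested against these shares. On chromosome 7, the cluster from 6131489 to 7209998 had 3 of 4 members below 0 and the lowest median of the 8 clusters, -0.20, and ran in the authors' deposited table from -0.27 for Zfp787 to 0.53 for Zfp773. Of its 23 guides, 10 were up and 10 down. The cluster from 43114166 to 43618279 on the same chromosome also had 3 of 4 below 0, with a median of -0.19, and ran in the authors' deposited table from -0.36 for Zfp819 to 0.42 for Zfp719. Of its 21 guides, 5 were up and 9 down. Farther along chromosome 7, the cluster from 127242996 to 127406835 had 2 of 4 below 0, with a median of 0.15, and ran in the authors' deposited table from -0.71 for Zfp768 to 0.57 for Zfp747. The second cluster on chromosome 17, from 32765496 to 33307239, had 5 of 8 members above 0 and ran in the authors' deposited table from -0.91 for Zfp955b to 0.37 for Zfp955a. Its median was 0.036, and its guides leaned the other way, with 14 of 44 up and 18 down.

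**Figure D4:**
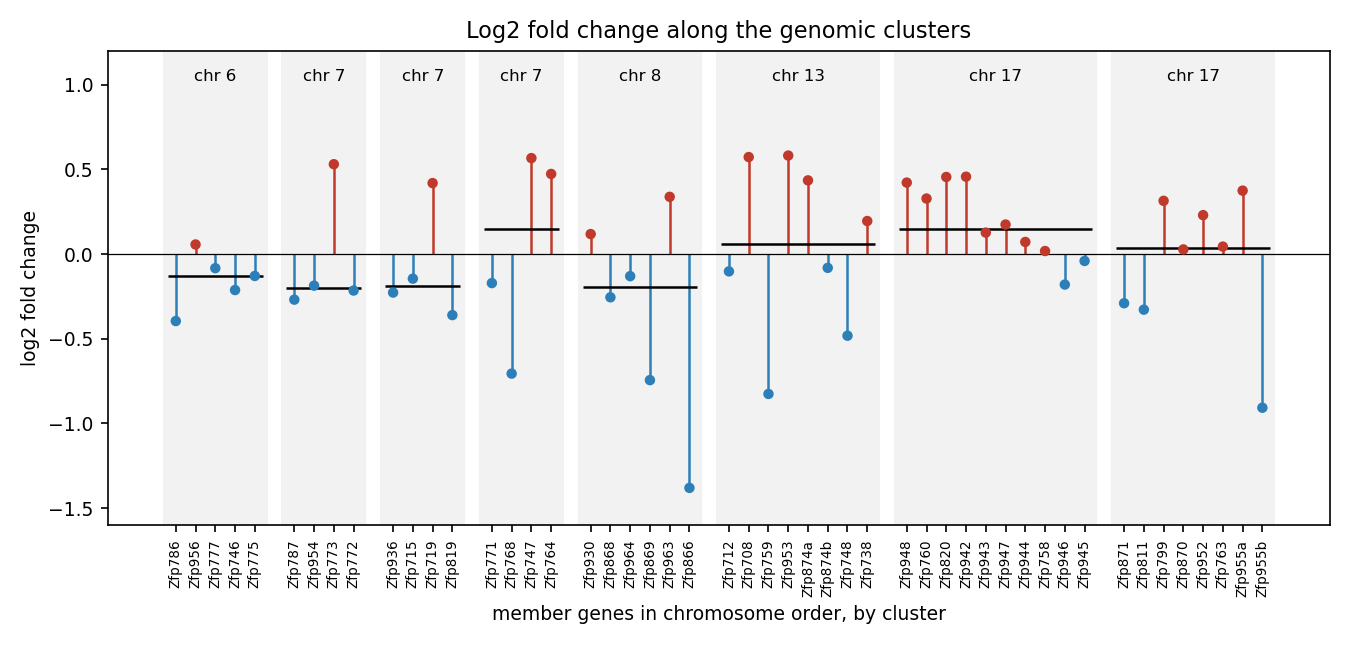
Log2 fold change (y axis) of the 49 clustered members in chromosome order, 1 grey panel per cluster, with red for values above 0, blue for values below and a black line at the cluster median. Members of both colours stand in each panel, and the first cluster of chromosome 17 has 8 of 10 above 0.

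The extremes of that last cluster, Zfp955a and Zfp955b, are also its last neighbours and show how alike sequences around gene starts can be. They lie on opposite strands with their starts facing each other. In RefSeq windows of 300 bases around the start (250 before and 50 after, GRCm38.p6), all 300 positions were identical between them. The part from 250 to 51 bases before the start follows in the direction of the gene, for Zfp955a at chr17:33255196-33255395 on the minus strand. The same letters stand for Zfp955b at chr17:33289294-33289493 on the plus strand, and as the copies do not differ there are no capitals.
Zfp955a and Zfp955b: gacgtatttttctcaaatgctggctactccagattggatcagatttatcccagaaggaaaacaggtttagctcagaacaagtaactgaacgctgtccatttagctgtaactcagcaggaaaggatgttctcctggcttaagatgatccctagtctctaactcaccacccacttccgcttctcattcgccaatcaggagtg

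With this shared sequence before their starts, the pair had unlike log2 fold changes, and their difference was not tested. For Zfp955a the authors' deposited table lists a log2 fold change of 0.37, with 3 guides up and 2 down of 6. For Zfp955b the authors' deposited table lists -0.91, with 1 guide up and 3 down of 5. The lowest p of the pair in the authors' deposited table was 0.243, so neither value is a call. Whether a guide against 1 copy also cuts the other was not tested, as guide sequences were not used here, and the values of such pairs are uncertain.

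Zfp747 and Zfp764, neighbours on chromosome 7, are shown as a related pair whose values were close. Their windows were identical at 265 of 300 positions, or 88.3%. The part from 250 to 51 bases before the start lies at chr7:127376101-127376300 for Zfp747 and at chr7:127406873-127407072 for Zfp764, both on the minus strand. It is identical at 176 of 200 positions, and the 24 capitals in each mark bases with no identical partner in the alignment, the ends included.
Zfp747: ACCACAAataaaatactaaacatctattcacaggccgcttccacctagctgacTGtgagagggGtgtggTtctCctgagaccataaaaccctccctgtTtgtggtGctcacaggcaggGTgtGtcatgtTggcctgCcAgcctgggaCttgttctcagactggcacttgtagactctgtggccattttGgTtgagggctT
Zfp764: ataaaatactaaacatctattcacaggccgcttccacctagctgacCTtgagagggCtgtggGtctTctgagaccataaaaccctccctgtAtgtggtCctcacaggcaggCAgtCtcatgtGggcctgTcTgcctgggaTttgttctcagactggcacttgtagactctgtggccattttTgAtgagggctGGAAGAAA

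For Zfp747 the authors' deposited table lists a log2 fold change of 0.57, with 4 guides up and 2 down of 6 and an enrichment p of 0.0654. For Zfp764 the authors' deposited table lists 0.47, with 4 guides up and none down of 6 and an enrichment p of 0.240. Over the 90 members with a RefSeq window, 4 of 4005 pairs shared at least 85% of positions, and the genes of each such pair lay on 1 chromosome. The median identity over all 4005 pairs was 52.3%. Zfp758 and Zfp943 shared 97.3% and stood in the authors' deposited table at 0.018 and 0.13. Zfp942 and Zfp944 shared 91.3% and stood in the authors' deposited table at 0.46 and 0.071. The absolute difference of the log2 fold changes had a median of 0.25 over these 4 pairs and of 0.39 over all pairs. Over the 4 pairs it ran from 0.094 for Zfp747 and Zfp764 to 1.28 for Zfp955a and Zfp955b, the pair with identical windows. So few pairs cannot show whether alike windows go with alike values.

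The start windows were also counted for CG dinucleotides, the main target of DNA methylation. The median was 10 per 300 bases over the 90 members, with quartiles of 8 and 19.75, against 15 over 15185 genes, with quartiles of 4 and 25. The 200 lower-numbered Zfp genes with a window had a median of 16. At least 10 were held by 57.8% of the members, 75% of the lower-numbered Zfp genes and 60.5% of all genes. All 90 members held at least 1, as did 95.2% of all genes. The motif CG reads the same on both strands, and no difference between these groups was tested.

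Fewer members than genes in general had a full set of guides. Of the 102, 71 had 6 guides, or 69.6%, 23 had 5 and 8 had 4, while 79.8% of all genes had 6. Within clusters 65.3% of members had 6 guides and outside them 73.6%.

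The partners through which KRAB proteins act were covered by a list of 29 genes of KAP1 recruitment, H3K9 and DNA methylation, HUSH, SUMO, NuRD and histone chaperones, of which 28 were analysed. Their median log2 fold change was 0.0049, with 14 above 0, or 50% against 48% of all genes. Of the 28, 2 lay below -1, or 7.14% against 3.29% of all genes, and none above 1, against 0.868%. Of their guides, 39.0% were up and 41.5% down, against 37.4% and 38.0% over all genes. No gene of the list had an unadjusted enrichment p under 0.05, against 5.02% of all genes. A depletion p under 0.05 was found for 1 gene, or 3.57% against 5.07%. For that gene, the HUSH subunit Mphosph8, the authors' deposited table lists -1.08 on the log2 scale, 5 of 6 guides down, 1 up and a depletion p of 0.0231.

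For Trim28, which encodes KAP1, the authors' deposited table lists a log2 fold change of -0.039, with 2 guides up and 3 down of 6. For Setdb1 the authors' deposited table lists -0.44, with no guide up and 4 of 6 down. The HP1 genes lay on both sides of 0. For Cbx3 the authors' deposited table lists -1.44, with none up and 5 of 6 down. For Cbx1 the authors' deposited table lists 0.48, with 4 guides up and none down, and for Cbx5 0.077, with 2 up and 1 down. Ehmt2 and Ehmt1, which form an H3K9 methyltransferase pair, stood in the authors' deposited table at 0.60 and 0.56, each with 5 guides up and 1 down. The lowest false discovery rates of the list in the authors' deposited table were 0.985 for enrichment and 0.947 for depletion, so no gene of it passed 0.05.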

How the data were processed

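The values came from 1 table of 22510 entries with 1 comparison between 2 MERVL-positive and 2 total libraries. Its columns are those of a gene summary of MAGeCK, which the submitters' processing notes name with the mm10 build. Not given in the sources used here are its version, its settings and the numerator of the fold change. Per entry and direction, the authors deposited a log2 fold change, a p-value, a false discovery rate and a score, per the file headers. Numbers of guides and ranks were deposited by the authors too, and the score was not used. As no counts per library were used, the deposited p-values were taken as they stand, with a threshold of 0.05. They may rest on technical spread alone, since the titles name sequencing repeats.

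Of the entries, 20380 are genes, 1132 microRNAs and 998 non-targeting guides, by name. Positions and start windows (the first listed per gene) came from RefSeq for GRCm38.p6. Windows were aligned globally with Biopython 1.88, and identity is over 300 positions. Intervals are exact binomial ones from scipy 1.17.1. The adjustment and clustering were tested on simulated data.

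The members and lists were chosen with earlier results of these data known. Named were members with an unadjusted p under 0.05, the 5 highest and 5 lowest, those with 4 or more guides all in 1 direction, 16 with known roles (2 not analysed here) and the extremes of each cluster, 35 members in all. Other genes were chosen after their values were seen.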

Additional observations from a re-analysis of the deposited data

How the results depend on the processing

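The number of members past a false discovery rate of 0.05 stayed at 0 in both directions with a threshold of 0.25, with p-values adjusted over genes only (lowest value 0.947 for enrichment and 0.970 for depletion) and without the letter-suffixed copies. That last alternative was chosen after seeing the data. At a p under 0.01 the counts of 5 enriched and 2 depleted members both became 0. The median log2 fold change of 0.0012 was -0.046 as a mean, -0.010 with at least 5 guides, -0.018 against the median of the non-targeting guides, 0.022 against that of all genes and -0.00047 without the letter-suffixed copies. Its sign is thus not settled. With the first of these zero points 2 members changed sign (Zfp804b and Zfp758), and with the second 2 (Zfp933 and Zfp882). The share of guides up was 37.5% to 37.9% and that of guides down 36.3% to 37.0% under the alternatives run. These alternatives reuse all or most of the same guides, so they could hardly move the shares. Restricting the members by zinc finger or KRAB matches in their proteins was not run, since no protein sequences were used. No paired analysis was possible because the result comes from 1 deposited comparison with no value per library, and no library could be left out for the same reason.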
